A study of Rattus norvegicus with 4 samples.

Results

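The miR-126 hairpins were followed through small RNA libraries of rat exosomes (small membrane vesicles shed by cells). The rule took every read sequence (tag) listed on the precursors rno-mir-126a or rno-mir-126b, and 39 listings of 29 distinct sequences were found, all on rno-mir-126a. They gave 2 of the 348 mature miRNAs with a count, miR-126a-3p and miR-126a-5p, and no tag was listed on rno-mir-126b. Exo-AT are exosomes released by minced adipose tissue of Sprague-Dawley (SD) rats aged 4 weeks, which were stirred in a flask of α-MEM (75 mL, 100 rpm) for 3 days. Exo-ADSCs are exosomes released by adipose stem cells at passage 3 during 3 days in serum-free α-MEM. Both media held penicillin and streptomycin, and the labels name no other agent and no genetic change in either group. Each group has 2 libraries, named here by group and replicate number (Exo-AT1, Exo-AT2, Exo-ADSCs1 and Exo-ADSCs2). No source used here says that replicates are different animals, pools or cultures, so their spread may be technical. Tests of counts used the 3 libraries with tag counts, of which 1 is Exo-ADSCs. Their p-values cover only the spread between the Exo-AT libraries.

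miR-126 is encoded in an intron of Egfl7, a gene of endothelial cells, and is among the best known miRNAs of the endothelium, the cell layer that lines blood vessels. Its 3p strand is the usual guide strand and is known to repress SPRED1 and PIK3R2, inhibitors of VEGF signalling, while the 5p strand is also active and is known to repress Dlk1. The miRNA is carried in vesicles, and platelets and other blood cells hold it too, so it is not a marker of endothelium alone. The sequences below show the 3 mature forms as RefSeq has them on the GRCr8 assembly, with the seed (bases 2 to 8, which pair with targets) in capitals, because the seed is what changes between the forms found in the libraries.
rno-miR-126a-3p, chr3:29813219-29813240, plus strand: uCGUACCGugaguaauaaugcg
rno-miR-126a-5p, chr3:29813182-29813202, plus strand: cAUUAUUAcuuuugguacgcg
rno-miR-126b, chr3:29813177-29813198, minus strand: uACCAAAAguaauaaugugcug
The seeds of the 3 forms differ. RefSeq puts this hairpin inside the span of Egfl7. It lists the miR-126a arms under the symbol Mir126b and miR-126b under Mir126a, so the names here are those of the mature miRNAs and of the tag files. The hairpin in the tag files, with its 5p and 3p arms in capitals, has 73 bases.
mir-126a hairpin: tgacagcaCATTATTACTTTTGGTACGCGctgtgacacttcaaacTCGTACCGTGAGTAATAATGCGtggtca
Its reverse complement lies whole within the 118-base mir-126b hairpin of the opposite strand, and 17 bases of miR-126b are the reverse complement of a stretch of miR-126a-5p.

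Several features of the libraries bear on every value below. Named miRNAs had 97204 counts in Exo-ADSCs2, 9134 in Exo-AT1 and 136024 in Exo-AT2. For Exo-ADSCs1 no tags were used, so its values are those of the authors' deposited table. Both Exo-AT tag files carry the same sample name inside. They were kept as 2 libraries, as labelled. Their counts differed beyond sampling noise over the miRNAs with at least 10 counts (chi-square 1723 on 182 degrees of freedom). This cannot show that they come from separate samples, since reads of 1 sample can also vary beyond that noise. All 8 mir-126a tags of Exo-AT1 were among the 25 of Exo-AT2. The Exo-AT columns of the authors' deposited table went against their headings. The column headed Exo-AT1 was proportional, within 5%, to the all-tag counts of the file labelled Exo-AT2 in 35 of 43 miRNAs, and to those of its own file in 4 of 43. The column headed Exo-AT2 was proportional to the most abundant tag in the file labelled Exo-AT1 in 27 of 43 miRNAs, and to that in its own file in 5 of 43. The column headed Exo-ADSCs2 followed the all-tag counts of its own file in 25 of 37. The Exo-AT columns are therefore named below by their headings only. miRNAs are the only RNAs in the files, so protein-coding markers of adipocytes or stem cells could not be used to check the labels.

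The main arm, miR-126a-3p, was higher in Exo-AT than in Exo-ADSCs. It had 19 counts in Exo-ADSCs2, 30 in Exo-AT1 and 556 in Exo-AT2. Scaled to library size with TMM factors (trimmed mean of M-values), these were 296, 2371 and 3782 CPM, the depth-scaled counts used below. The Exo-AT libraries averaged 3077 ± 998 CPM (SD, n = 2). The test below has 1 Exo-ADSCs library, so its spread is that between the 2 Exo-AT libraries. The log2 fold change of miR-126a-3p was 3.40 (SE 0.56, adjusted p = 8.04e-08, quasi-likelihood test of edgeR, Benjamini-Hochberg over 183 miRNAs). Of all miRNAs tested, 19.1% were called higher in Exo-AT, 19.1% lower and 38.3% in either direction (35 higher and 35 lower, or 46 and 19 with total-count scaling), and the median log2 fold change was 0.37 (1.21 with total-count scaling). The call was lost with limma (adjusted p = 0.103) and with the authors' predicted hairpins in the fit (adjusted p = 0.53, edgeR). In vesicle RNA, fewer vesicles from a cell type and less of the miRNA in each vesicle cannot be told apart.

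The second arm, miR-126a-5p, did not pass the test. It had 13, 5 and 138 counts in Exo-ADSCs2, Exo-AT1 and Exo-AT2, or 203, 395 and 939 TMM-scaled CPM. The Exo-AT libraries differed widely, at 667 ± 384 CPM (SD, n = 2). The log2 fold change of miR-126a-5p was 1.83 (SE 0.91, adjusted p = 0.102, edgeR). It was 0.99 without Exo-AT2 and 2.21 without Exo-AT1. With total-count scaling the value was 2.64 and passed the test (adjusted p = 0.016, edgeR).

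**Figure D1:**
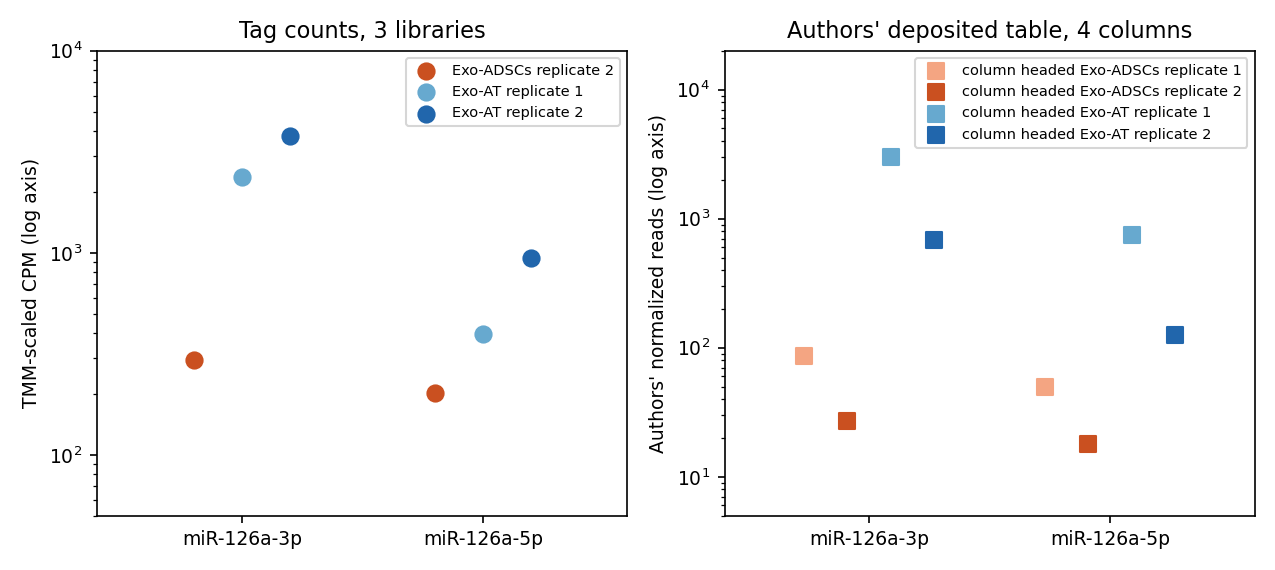
Left, TMM-scaled CPM (log axis) of both miR-126a arms in the 3 libraries with tag counts, 1 point per library. Right, the authors' normalized reads (log axis) in the 4 columns of their deposited table, by column heading. In both panels the Exo-AT points lie above the Exo-ADSCs points for each arm. This order is a description only, with 1 Exo-ADSCs library on the left.

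The antisense miRNA, miR-126b, was not detected. No tag in any library held the first 14 bases of its mature sequence. Up to 3 counts could be missed where 0 were seen, and without TMM factors that limit is 30.9, 328 and 22.1 CPM in Exo-ADSCs2, Exo-AT1 and Exo-AT2. Every listed tag had at least 2 reads, so forms with a single read could be missed too, and the true limit may be higher. On the same unscaled basis miR-126a-5p was at 134, 547 and 1015 CPM, so in the shallow Exo-AT1 the limit for miR-126b lies not far below the 5p level. All 39 listings on mir-126a carry the alignment status R in the files, and each stands on this hairpin alone with the whole count of its tag. The meaning of this status is not given in the sources used here.

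The authors' deposited table is the only source for Exo-ADSCs1. For miR-126a-3p it gives normalized reads of 3026 and 686 in the columns headed Exo-AT1 and Exo-AT2, and of 87 and 27 in those headed Exo-ADSCs1 and Exo-ADSCs2. For miR-126a-5p it gives 751, 125, 50 and 18 in the same order. The table lists 45 miRNAs that the authors chose as raised in Exo-AT, so its direction is a description with no test. The ratio of the group means was 32.6 for miR-126a-3p and 12.9 for miR-126a-5p. Without the column headed Exo-AT1 these ratios were 12.0 and 3.68. Without the column headed Exo-ADSCs1 they were 68.7 and 24.3. For both arms the column headed Exo-AT1 followed the file labelled Exo-AT2, with 5.44 normalized reads per count for miR-126a-3p and for miR-126a-5p against a median of 5.44 over 43 miRNAs. The 686 normalized reads of miR-126a-3p correspond to 62.4 per count of its leading tag alone in the file labelled Exo-AT1, where the median was 62.3. The 125 normalized reads of miR-126a-5p correspond to 41.7 per count of its leading tag there (3 counts), so this arm did not follow its leading tag.

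Over all tags the 3p arm held 59.4% of the 32 mir-126a counts in Exo-ADSCs2 (Wilson 95% interval 42.3 to 74.5), 85.7% of 35 in Exo-AT1 (70.6 to 93.7) and 80.1% of 694 in Exo-AT2 (77.0 to 82.9). The intervals of Exo-ADSCs2 and Exo-AT1 overlap, and that of Exo-AT2 lies just above the first. In Exo-ADSCs2 the 3p majority rests on tags with 3 leading bases, described with their sequences: without them 4 counts of 3p and 5 of 5p were left there, and Exo-AT had no such tags. These intervals cover counting error only, since the reads carry no molecular identifiers. The ratio of 3p to 5p can also be taken within each column of the authors' deposited table, where it does not depend on the scaling between libraries. It was 4.03 and 5.49 in the columns headed Exo-AT and 1.74 and 1.5 in those headed Exo-ADSCs. The groups did not overlap, and the geometric means differed 2.91-fold, but an exact permutation test (two-sided) gave p = 0.333, the smallest value that 2 against 2 allows. The column headed Exo-AT2 followed the leading tag of the file labelled Exo-AT1 for miR-126a-3p but not for miR-126a-5p. Its ratio is thus neither one of all tags nor one of leading forms. The column headed Exo-ADSCs2 followed all tags, those with 3 leading bases included. Among hairpins with at least 18 counts the median share of the minor arm was 0% in all 3 libraries. mir-126a, with a minor share of 40.6%, 14.3% and 19.9% in Exo-ADSCs2, Exo-AT1 and Exo-AT2, ranked 2, 6 and 10 from the top, so both of its arms were present where most hairpins gave 1.

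The reads behind these sums were of different kinds in the groups. The leading tags of miR-126a-3p in Exo-AT were the RefSeq sequence and forms that begin 1 base later. They are printed with bases 2 to 8 in capitals, to show that the later start moves the seed.
RefSeq form, 0 counts in Exo-ADSCs2, 11 in Exo-AT1 and 193 in Exo-AT2: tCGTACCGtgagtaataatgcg
Start 1 base later, 0, 2 and 116 counts: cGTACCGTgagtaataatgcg
Start and end 1 base later, 0, 5 and 101 counts: cGTACCGTgagtaataatgcgt
End 1 base earlier, 0, 5 and 51 counts: tCGTACCGtgagtaataatgc
In Exo-AT2, tags that start at the RefSeq start held 47.5% of the 3p counts (Wilson 95% interval 43.4 to 51.6) and tags that start 1 base later held 46.0% (41.9 to 50.2). In Exo-AT1 they held 21 of 30 counts (52.1% to 83.3%) and 7 of 30, or 23.3% (11.8 to 40.9). The later start was thus a common form of miR-126a-3p in Exo-AT, with the seed read from base 3 of the RefSeq sequence. Among miRNAs with at least 20 counts, whose median share of this start was 3.15% in Exo-AT2 and 3.48% in Exo-AT1, miR-126a-3p ranked 5 of 105 and 2 of 37. This rank is a description of these libraries. miR-126a-5p mostly began at the RefSeq start, with 90.6% of 138 counts in Exo-AT2 and all 5 in Exo-AT1 there.

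In Exo-ADSCs2 no tag of miR-126a-3p began at the RefSeq start or within 1 base of it. Its 19 counts came from 3 tags, and those of the 5p arm also from 3. The forms below carry 3 bases, in capitals, in front of the mature sequence or of its second base, and are called prefixed here. In the files each is aligned from 2 or 3 bases before the RefSeq start with a single change among these 3 bases, a substitution in the first and the last form shown and an inserted base in the second, so the other 2 bases match the hairpin.
miR-126a-3p, 9 counts: ACGcgtaccgtgagtaataatgcg
miR-126a-3p, 6 counts: ACGtcgtaccgtgagtaataatgcg
miR-126a-5p, 8 counts: GTAcattattacttttggtacgcg
Such prefixed tags were 78.9% of the miR-126a-3p counts (Wilson 95% interval 56.7 to 91.5) and 61.5% of the miR-126a-5p counts (35.5 to 82.3) in this library. None was found on mir-126a in Exo-AT, where 0 of 556 counts of miR-126a-3p in Exo-AT2 gives an upper Wilson bound of 0.686%. The rest of the 3p counts in Exo-ADSCs, 4 in all, was a 16-nt piece from the 3′ end of the arm, printed with its own bases 2 to 8 in capitals.
miR-126a-3p, 4 counts: cGTGAGTAataatgcg
The rest of the 5p counts there was the RefSeq form with 3 counts and the same form with an added last base, which the hairpin does not hold there, with 2.
The origin of these leading bases was not tested.

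**Figure D2:**
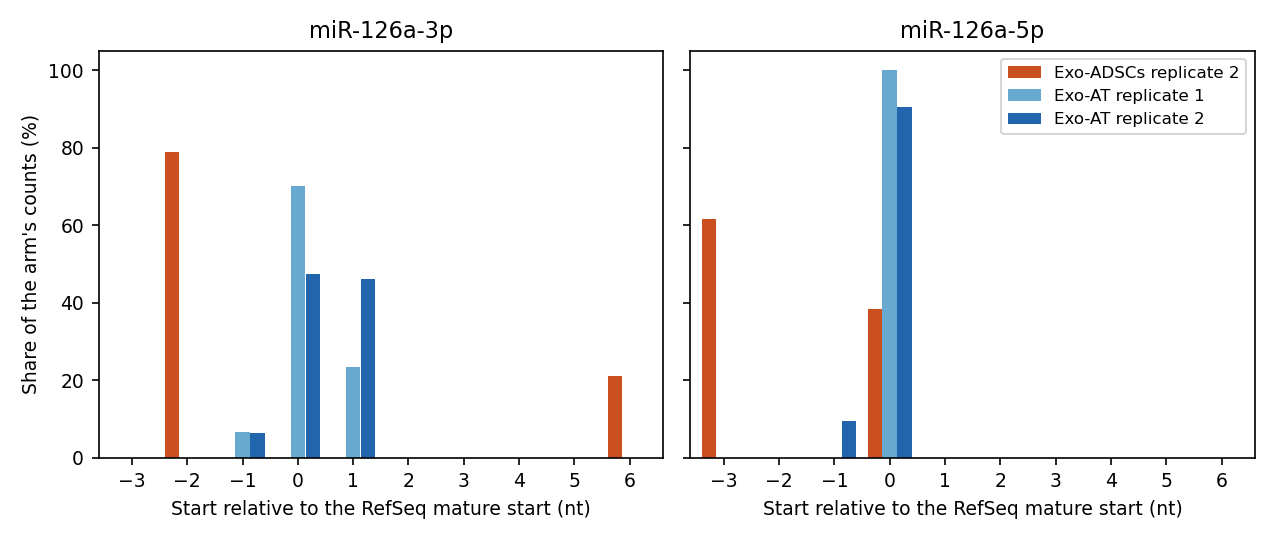
Share of each arm's counts (%) by the aligned 5′ start relative to the RefSeq mature start (nt), with 1 bar colour per library. The bars of Exo-AT stand at -1, 0 and 1 for miR-126a-3p, and those of Exo-ADSCs2 at -2 (15 counts, all prefixed) and 6 (4 counts).

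The level of the arms depends on how these forms are counted. Leaving out prefixed tags, a setting chosen after seeing the data, Exo-ADSCs2 had 4 counts of miR-126a-3p (62.3 CPM) and 5 of miR-126a-5p (77.9 CPM). The log2 fold change was then 5.57 for miR-126a-3p and 3.14 for miR-126a-5p. Prefixed tags of mir-126a occurred only in Exo-ADSCs2, so this setting could lower the arms in that library alone. The rise in both values was thus fixed in advance. Other ratios compare the Exo-AT mean with Exo-ADSCs2 set to 3 counts. Counting only 3p tags that start at or within 1 base of the RefSeq start, that mean was 65.8 times this level. For the exact RefSeq sequence of miR-126a-3p it was 23.3 times this level. Exo-AT1 lay below these means, at 2371 and 869 CPM. The start window held all 3p counts of Exo-AT and 0 of 19 in Exo-ADSCs2. Both ratios thus restate the forms already described and are no lower bounds. Both leave out the prefixed tag of Exo-ADSCs2 that holds the whole RefSeq sequence (6 counts). The exact RefSeq sequence of miR-126a-5p had 3, 2 and 75 counts, or 46.8 CPM in Exo-ADSCs2 and 158 and 510 CPM in Exo-AT1 and Exo-AT2, so the Exo-AT libraries differed widely.

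Read lengths of miR-126a-3p differed between the groups as the starts did. Tags of 21 to 23 nt held 83.3% of its counts in Exo-AT1 (Wilson 95% interval 66.4 to 92.7) and 94.4% in Exo-AT2 (92.2 to 96.0). In Exo-ADSCs2 they held 0 of 19 counts, with an upper bound of 16.8%, and its tags were of 16, 24 and 25 nt. Over all named miRNAs the same lengths held 24.8% of the counts in Exo-ADSCs2, 71.5% in Exo-AT1 and 75.8% in Exo-AT2, so the libraries differ in length beyond this miRNA too. The part of this library-wide difference in the miR-126a lengths was not tested. The mean length of miR-126a-3p was close in all libraries, at 22.6 nt in Exo-ADSCs2 and at 21.5 and 21.6 nt in Exo-AT. For miR-126a-5p the window held 5 of 13 counts in Exo-ADSCs2, 5 of 5 in Exo-AT1 and 110 of 138 in Exo-AT2. At the 3′ end, 62.8% of the 3p counts in Exo-AT2 ended at the RefSeq end, 22.1% a base later and 15.1% earlier. Tags with a mismatch or indel were 12.8% of the 3p counts and 18.8% of the 5p counts in that library.

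**Figure D3:**
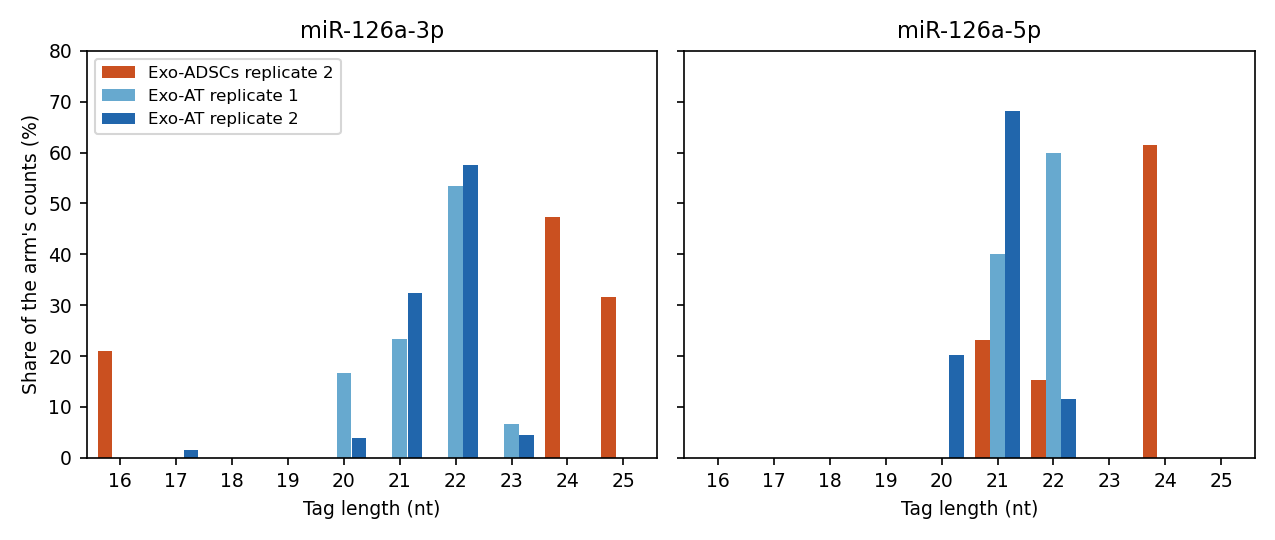
Share of each arm's counts (%) by tag length (nt), with 1 bar colour per library. In Exo-AT the 3p tags peak at 22 nt, while Exo-ADSCs2 has bars at 16, 24 and 25 nt only.

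Most endothelial-enriched miRNAs did not pass the test. The endothelial-enriched list holds 12 hairpins, of which 11 had a count, with 15 forms tested. Of these, 2 were higher in Exo-AT (miR-126a-3p and miR-27b-3p), 1 was lower (miR-24-3p) and 12 were not called, against 19.1% called in each direction over all miRNAs. The median log2 fold change of the list was 0.18, and 0.37 over all 183. Without the miR-126a arms the median of the list was also 0.18. miR-27b-3p, a regulator of endothelial sprouting, averaged 2976 ± 822 CPM in the Exo-AT libraries (SD, n = 2), compared with 717 CPM, with a log2 fold change of 2.02 (SE 0.51). miR-24-3p, whose genes are clustered with those of miR-23 and miR-27, averaged 626 ± 232 CPM, compared with 19480 CPM. The most abundant members, miR-10b-5p and miR-10a-5p, stood at 0.11 and -0.41 on the log2 scale, and miR-92a-3p and miR-27a-3p at 0.18 and -0.23. None of these 4 passed the test, and with limma 0 forms of the list were called.

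miRNAs that promote or restrain angiogenesis moved both ways. Exo-AT was higher for 6 and lower for 7 of 24 tested forms, with a median log2 fold change of 0.18, against 19.1% called in each direction and 38.3% in either over all miRNAs. The split depended on the setting: with total counts 8 of 12 called forms were higher in Exo-AT, with tags of 20 to 25 nt 2 of 10, and with limma 0 were called. Besides miR-126a-3p and miR-27b-3p, those higher were miR-15a-5p, miR-16-5p, miR-19b-3p and miR-497-5p, of which miR-15a, miR-16 and miR-497 share a seed and are known to repress BCL2 and cell cycle genes, with VEGF among their reported targets. Those lower were miR-210-3p, miR-130a-3p and miR-378a-3p, known as promoters of angiogenesis, with miR-31a-5p, miR-100-5p, miR-214-3p and let-7f-5p. The called members outside the 6 most abundant of the list (miR-15a-5p, miR-19b-3p, miR-497-5p, miR-130a-3p, miR-214-3p and miR-31a-5p) are named because they were called, after their values were seen. miR-16-5p averaged 3900 ± 1267 CPM in the Exo-AT libraries and 655 CPM in Exo-ADSCs2, and the hypoxia miRNA miR-210-3p 278 ± 58.4 and 7979 CPM. The direction for let-7f-5p depended on scaling, with -0.86 by TMM and 0.01 by total counts on the log2 scale. Without the miR-126a arms, which are members, the median log2 fold change of the list was 0.01.

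The markers of blood cells, which also hold miR-126, were uneven between the Exo-AT libraries. The blood cell list summed to 51023 CPM in Exo-ADSCs2 and to 37150 and 155368 CPM in the Exo-AT libraries, which thus lay on both sides. All 6 hairpins had a count in some library, and of 4 tested forms miR-486-5p and miR-150-5p were called higher in Exo-AT and none lower, against 19.1% called higher over all miRNAs. Both calls were lost with DESeq2 size factors, DESeq2 and limma. miR-486-5p stood at 49869 CPM in Exo-ADSCs2 and at 36676 and 153191 CPM in Exo-AT1 and Exo-AT2, and miR-150-5p had 0, 2 and 69 counts, so the high values of both were those of Exo-AT2. miR-150-5p passed the count filter through Exo-AT alone, so it could only be called higher. miR-223, a defining myeloid and platelet miRNA, had 0 counts in Exo-ADSCs2 and in Exo-AT1, and miR-144 had 0 in Exo-AT1. The erythroid miR-451-5p had 55, 2 and 190 counts in Exo-ADSCs2, Exo-AT1 and Exo-AT2 and stood at -0.01 on the log2 scale. Of 3 smooth muscle and pericyte forms, miR-143-3p was called lower in Exo-AT (129368 ± 14233 against 235991 CPM, log2 fold change -0.87), but stood at 0.04 with total-count scaling, and miR-145-5p and miR-145-3p were not called, against 19.1% called lower over all miRNAs. The list summed to 236739 CPM in Exo-ADSCs2 and to 139432 and 119466 CPM in the Exo-AT libraries. The part of blood or mural cells in the miR-126a result was not tested.

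**Figure D4:**
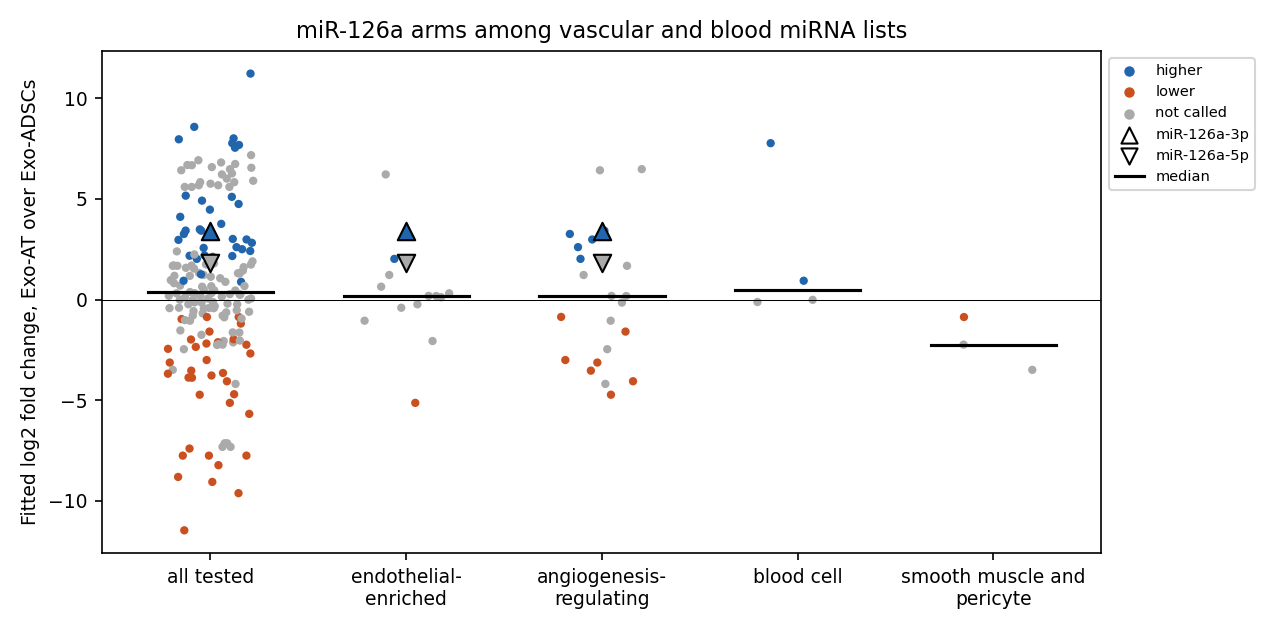
Fitted log2 fold change (Exo-AT over Exo-ADSCs) of all 183 tested miRNAs and of the 4 lists, coloured by call, with the median as a bar. Triangles mark miR-126a-3p at 3.40 and miR-126a-5p at 1.83. Both arms are members of both vascular lists, whose medians of 0.18 include them. Without the arms the medians are 0.18 (endothelial-enriched) and 0.01 (angiogenesis-regulating).

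Likeness of pattern was measured as the Euclidean distance between centred log2 CPM values over the 3 libraries, with 182 miRNAs compared. The 5 nearest to miR-126a-3p were miR-15a-5p (distance 0.26), miR-30d-5p (0.29), miR-136-3p (0.37), miR-434-3p (0.41) and miR-155-5p (0.44). miR-30d-5p was the most abundant of them, with 7667 and 10679 CPM in the Exo-AT libraries and 1184 CPM in Exo-ADSCs2. miR-136-3p and miR-155-5p rested on 0, 2 and 29 and on 0, 2 and 27 counts and were not called. The other arm of the hairpin, miR-126a-5p, ranked 43 of 182 (distance 1.48). Among the points, depth and library are shared, so the distances are a description only.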

How the data were processed

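Small RNA of 15 to 35 nt was sequenced for 36 cycles on an Illumina HiSeq, per the labels' protocols. Alignment with Novoalign 2.07.11 and the assembly rn6 are listed in the submitters' processing notes. Per the file headers, the deposited tag files give whole-number counts per read sequence and hairpin, and every tag had at least 2 reads. Where a tag is listed on several hairpins, its reads are split equally. How adaptors were trimmed is not given in the sources used here. The deposited table of 45 miRNAs holds values headed normalized reads, a score here because the authors' factor is not stated. The file of Exo-ADSCs1 holds no tags and was not used.

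Tags were summed to mature miRNAs by hairpin and arm, with genomic copies joined. Tags centred on or before the hairpin's midpoint were taken as 5p and the others as 3p, after an offset of 5 bases in the files' positions was removed. Starts and ends of mir-126a tags were set against the RefSeq mature sequences (GRCr8) of its 5p and 3p arms, which both lie whole in the hairpin of the tag files. A tag counted as prefixed where 3 bases preceded the first 14 bases of a RefSeq mature sequence, or of that sequence from its second base, and the tag as a whole was not found in its hairpin, so some of the 3 bases can match the hairpin. edgeR 4.0.16 (R 4.3.3, quasi-likelihood, two-sided) was fitted to the 3 libraries with TMM factors of 0.664, 1.39 and 1.08 and the default filter (minimum count 10, total 15), and calls were made at an adjusted p of 0.05. With 1 Exo-ADSCs library the spread comes from the Exo-AT libraries, with 1 residual degree of freedom, and the lone library is assumed to vary like them. DESeq2 1.42.0 and limma 3.58.1 served as alternatives, with other scalings, filters and tag sets. The miRNAs and lists were chosen with earlier results of these data known. The rule for names took both arms, up to 6 of the most abundant tested forms per list and the 5 miRNAs nearest to miR-126a-3p in pattern.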

Additional observations from a re-analysis of the deposited data

How the results depend on the processing

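miR-126a-3p and miR-126a-5p were higher in Exo-AT under all alternatives run. The 3p log2 fold change lost its call with limma (3.23) and with predicted hairpins included (3.41). The 5p value gained one with total-count scaling (2.64), tags listed on 1 hairpin (1.98) and tags without mismatch or indel (3.50). With prefixed tags left out the 3p and 5p values were 5.57 and 3.14, a setting that could only lower the mir-126a counts of Exo-ADSCs2. Leaving out an Exo-AT library gave 3.03 to 3.67 and 0.99 to 2.21, with no test, and for counts of calls no value. With only the most abundant tag, miR-126a-3p had 0 counts in Exo-ADSCs, so its fitted value is no measure of size. The number called higher was 35, and it was 23 with DESeq2 size factors, 22 with DESeq2, 4 with limma and 0 with predicted hairpins (25 at an unadjusted p under 0.05 by edgeR). The number called lower was 35, and it was 19 with total counts, 21 with DESeq2, 14 with limma and 0 with predicted hairpins. In the endothelial-enriched list, the number called was 3, and it was 5 with total counts, 0 with limma, 5 with tags of 20 to 25 nt, 7 with the most abundant tag, 6 without mismatches and 0 with predicted hairpins. In the angiogenesis-regulating list, it was 13, and 8 with DESeq2, 0 with limma and 0 with predicted hairpins. In the blood cell list, it was 2, and 0 with DESeq2 size factors, DESeq2, limma and predicted hairpins, and 1 with tags of 20 to 25 nt and with the most abundant tag. In the smooth muscle and pericyte list, it was 1, and 0 with DESeq2 size factors, total counts, DESeq2, limma, the most abundant tag, tags on 1 hairpin and predicted hairpins. Tags of 20 to 24 nt held 47.4% of the miR-126a-3p counts in Exo-ADSCs2. They held 100% and 98.4% in Exo-AT1 and Exo-AT2, as this window is wider than 21 to 23 nt and takes in more tags. Other causes were not tested. In the authors' deposited table, leaving out 1 column gave ratios of 12.0 to 68.7 for 3p and 3.68 to 24.3 for 5p. miR-126b had no counts and gave no value. No paired analysis was possible because the groups share only 1 replicate number among the libraries with tag counts. Depth limits Exo-ADSCs, with 19 and 13 counts, and Exo-AT1, with 30 and 5.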

Other observations

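The prefixed form (tags with 3 bases before a mature start, which the hairpin does not hold in full) was not spread evenly over the miRNAs of Exo-ADSCs2. This was looked at after the forms of mir-126a had been seen, and the miRNAs below were chosen by their values. The limit used below, at least 13 counts, equals the count of miR-126a-5p there. At the limit of 20 counts used for starts, neither arm of mir-126a would enter. Of 108 miRNAs with at least 13 counts there, leaving out let-7a-5p, miR-10a-5p and miR-10b-5p, 47 had at least 1 prefixed tag, and 6 had more than 50% of their counts in such tags. These were the erythroid miR-451-5p (94.5% of 55 counts), the liver miR-122-5p (90.9% of 22), miR-425-5p (90.2% of 41), miR-126a-3p (78.9% of 19), miR-375-3p, known from pancreatic islets and epithelia (73.9% of 23), and miR-126a-5p (61.5% of 13). Other blood cell markers of that library went the other way, with 0 prefixed of 3200 counts for miR-486-5p and 0 of 15 for miR-142-5p. Among the abundant miRNAs of that library the shares were lower, at 0.147% for miR-99b-5p, 0.313% for miR-10b-5p, 0.581% for miR-100-5p, 0.594% for miR-143-3p and 0.879% for miR-21-5p, whereas let-7a-5p stood at 73.8% of 10943 counts. The most common prefixes there were GAC (7881 counts), ACG (455), CAT (412) and GTA (249). Over all named miRNAs, prefixed tags were 9.39% of counts in Exo-ADSCs2, 1.83% in Exo-AT1 and 2.28% in Exo-AT2. Of these counts let-7a-5p held 8078 of 9127 in Exo-ADSCs2, and miR-10b-5p held 160 of 167 and 3052 of 3098 in Exo-AT1 and Exo-AT2 (7.08% and 8.23% of its own counts), so these miRNAs and miR-10a-5p, which differs from miR-10b-5p by little in sequence, were set apart after the values were seen. With the 3 left out, prefixed tags were 1.42% of named counts in Exo-ADSCs2, 0.118% in Exo-AT1 and 0.0535% in Exo-AT2, and no miRNA with at least 13 counts passed 50% in Exo-AT.

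A later start was also common for a few other miRNAs of Exo-AT2. The share of counts that began 1 base after the RefSeq start was 78.6% for miR-203a-3p (28 counts), 74.1% for miR-212-3p (27 counts), 52.7% for miR-140-3p (188 counts) and 52.4% for miR-133a-3p (21 counts). In Exo-ADSCs2 miR-140-3p began there in 70.1% of 378 counts and miR-203a-3p in 15.2% of 191. In Exo-AT1 the miRNA with the highest share among those with at least 20 counts was miR-125b-5p, at 26.1% of 46 counts.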
